A study of Homo sapiens with 15 samples.

Results

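MelJuSo, a human melanoma cell line, was profiled by bulk RNA sequencing in 6 of the series' 15 libraries: 3 libraries (A, B and C) of a line that carried p65 without guides and 3 of a line without an activation domain. The 6 libraries were taken by construct, as the labels give it, and no measured value entered the choice. In the p65 line, 5xALFA-dCas12a-VP64 was combined with nanobody-p65. In the control line, 5xALFA-dCas12a was combined with a nanobody that carried no activation domain. Neither line held the cassette of CD4-targeting guides, so dCas12a, a Cas12a protein that does not cut DNA, had no guide to direct it. Both lines expressed a dCas12a with an array of ALFA tags, short peptides bound by the nanobody, and both had been grown to confluency and scraped from their flasks.

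The p65 line differed from the control in 2 ways at once, VP64 on dCas12a and p65 on the nanobody, and their shares cannot be told apart in this contrast. A VP64 line without guides, with the same 5xALFA-dCas12a-VP64 and nanobody-VP64, was set beside it, so that the p65 and VP64 lines differed by the domain on the nanobody. The labels do not say whether a line was a clone or a pool, nor whether its 3 libraries came from separate cultures. The p-values measure the spread between these libraries, which may be technical, and the line and its construct cannot be told apart. In bulk RNA, fewer cells with a transcript and less transcript per cell cannot be told apart.

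VP64 is a repeated activation domain of a herpesvirus protein, and p65 is the product of RELA, the NF-kB subunit whose transactivation domain recruits coactivators such as CREBBP and EP300. NF-kB dimers are held in the cytoplasm by inhibitor proteins and are freed by cytokine, stress and microbial signals. Freed dimers bind kappa B sites in promoters of chemokines, cytokines, survival factors and their own inhibitors. In melanoma cells NF-kB activity is known for driving secreted chemokines such as CXCL1 and CXCL8.

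Libraries of the 6 compared held between 18567790 and 23072513 expected counts, and pairwise correlations of log2 levels within a line were 0.9948 or higher. Levels below are CPM (expected counts relative to library size, scaled by the trimmed mean of M-values), and a call is an adjusted p under 0.05 in edgeR's quasi-likelihood test over all 14961 genes tested. As a check of the cell type, 22 melanocyte lineage genes were read: 17 passed the filter on low counts, and 5 (MLANA, SLC45A2, SLC24A5, TRPM1 and KIT) stayed under 1 CPM in all 6 libraries. SOX10, a master factor of the lineage, was at 290, 298 and 288 CPM in the control line and 229, 249 and 257 CPM in the p65 line. The label thus had its lineage factor, while several late pigment genes were near 0. T cell genes CD3D, CD3G and CD2 were at 0 in all 6 libraries.

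CD4, the target of the absent guides, was at 4.14, 4.25 and 1.22 CPM in the control line and at 10.0, 11.1 and 10.8 CPM in the p65 line. All p65 libraries lay above all control libraries, and control library C lay below the other two. The gene (ENSG00000010610.9, hg38 chr12:6786858-6820808) rose, with a log2 change of 1.77 (SE 0.194, adjusted p = 1.25e-07). Its log2 difference from the VP64 line was 0.27 (adjusted p = 0.485), with a 95% interval from -0.07 to 0.61. RELA, which encodes p65 itself (ENSG00000173039.18, hg38 chr11:65653596-65663094), was at 103, 109 and 103 CPM in the control and 115, 114 and 117 CPM in the p65 line. The log2 rise was 0.14 (SE 0.038, adjusted p = 0.00481). It was 0.18 in the VP64 line, which carries no nanobody-p65 and had RELA at 118, 123 and 117 CPM. The p65 and VP64 lines did not differ at the threshold (log2 difference -0.05, 95% interval -0.13 to 0.03). Under an offset for effective transcript length the RELA call was lost (log2 0.26, adjusted p = 0.0791). Whether reads of the introduced p65 were counted under RELA was not tested.

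Between the p65 line and the control, 7430 genes were called (49.7% of those tested), of which 3700 rose (24.7%) and 3730 fell (24.9%). Most changes were small: the median absolute log2 fold change was 0.25, beside a median SE of 0.0819. At least 2-fold, 296 genes rose (1.98%) and 568 fell (3.8%). Groups of 3 libraries did not overlap for 57.2% of all genes tested, so a lack of overlap marks no gene as unusual here.

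**Figure D1:**
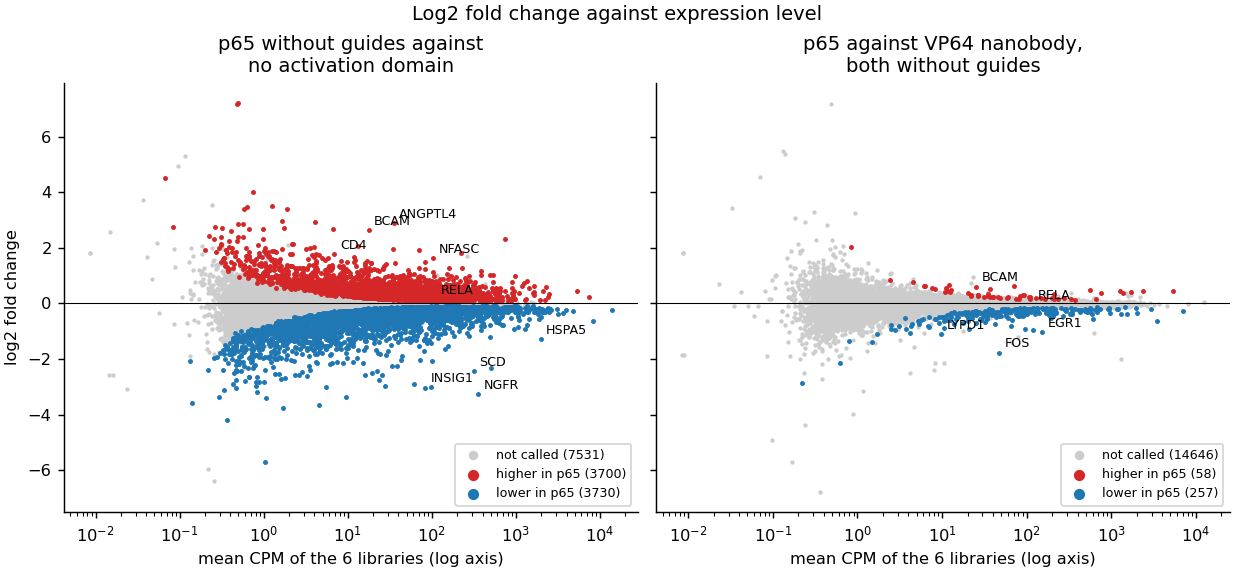
Log2 fold change (vertical axis) against mean CPM of the 6 libraries (horizontal log axis) for each gene tested, p65 without guides against no activation domain (left) and against the VP64 nanobody line (right); red points were higher in p65 and blue points lower at an adjusted p under 0.05. Called genes number 3700 and 3730 on the left and 58 and 257 on the right, on the same vertical scale.

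ANGPTL4, a secreted inhibitor of lipoprotein lipase (hg38 chr19:8363289-8374373), was at 8.01, 7.87 and 8.87 CPM in the control and 67.6, 55.9 and 61.9 CPM in the p65 line. The lowest p65 library was far above the highest control library. The log2 change was 2.90 with an SE of 0.111 (adjusted p = 8.41e-15). NFASC, the cell adhesion molecule neurofascin, was at 52.4, 48.5 and 50.5 CPM in the control and 156, 155 and 157 CPM in the p65 line, with the smallest adjusted p of the rises (log2 1.63, SE 0.040, adjusted p = 1.38e-17). IL11, a cytokine of the IL-6 family, was at 30.4, 29.3 and 27.8 CPM in the control and 109, 107 and 113 CPM in the p65 line (log2 1.91, SE 0.073, adjusted p = 8.58e-15).

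The same direction was seen for CD59, which blocks the complement pore (log2 1.17), MRC2, a collagen uptake receptor (1.5), SYNPO, the actin-binding synaptopodin (1.47), ENAH, an actin regulator (1.42), and PTGFRN, a tetraspanin partner (0.95). Each had a mean of at least 20 CPM and was called. Among genes with lower counts, the largest log2 rises were those of SFTA1P, a noncoding transcript (3.52; 3, 5 and 4 counts in the control and 54, 42 and 44 in the p65 line), SMPDL3B, a phosphodiesterase of the acid sphingomyelinase family (2.96), ILDR2 (2.92), LIPH, a phosphatidic acid lipase (2.74), and PLEKHA7, a component of adherens junctions (2.69). BCAM, a laminin receptor, rose by 2.64 from 5.56, 4.39 and 4.83 CPM to 26.7, 31.3 and 33.4 CPM. The receptor tyrosine kinases EPHB2 (2.08) and TIE1 (2.0) were also among the 15 largest rises; the TIE1 call was lost under the length offset (adjusted p = 0.0538).

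NGFR, the p75 neurotrophin receptor and a marker of neural crest-like melanoma cells (hg38 chr17:49495293-49515017), was at 646, 633 and 637 CPM in the control and 58.2, 69.5 and 71 CPM in the p65 line. The groups lay far apart, and the log2 change was -3.27 (SE 0.086, adjusted p = 3.49e-17). INSIG1, which retains the sterol sensor SCAP in the endoplasmic reticulum, was at 142, 146 and 157 CPM in the control and 17.5, 17.4 and 19.2 CPM in the p65 line (log2 -3.04, SE 0.083, adjusted p = 3.86e-17). LYPD1, a GPI-anchored modulator of acetylcholine receptors, was at 47.6, 49.7 and 49.7 CPM in the control and 5.34, 7.23 and 6.07 CPM in the p65 line (log2 -2.98, SE 0.096, adjusted p = 4.64e-16). SERPINB7, a serine protease inhibitor, fell from 112, 99 and 113 CPM to 14.6, 12.7 and 15.8 CPM (log2 -2.90, SE 0.089, adjusted p = 1.93e-16).

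Other well-measured falls were those of the fatty acid desaturase SCD (log2 -2.43), the cystatin CST7 (-2.57), the collagenase MMP8 (-2.24) and the stress-induced mTOR inhibitor DDIT4 (-2.06). Further large falls were those of ITGA10, an integrin subunit for collagen (-3.77), DENND2A (-3.68), CALB2, the calcium-binding calretinin (-3.37), SAA1, an acute-phase protein (-3.0), and SIRPB1 (-2.74). The metalloprotease ADAM8 fell by 3.41 on the log2 scale, or by 4.53 without p65 library C; its counts in the p65 line were 1, 2 and 8. FRG2, a gene with near-identical copies whose reads counting could split, had 39, 32 and 56 counts in the control and 0, 2 and 0 in the p65 line. SDHAP2, a pseudogene with a similar caveat, fell by 2.83, or by 3.81 without p65 library A and 2.18 without p65 library C, and its call was lost in DESeq2 (adjusted p = 0.0735) and under the length offset (0.0514).

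Canonical NF-kB genes are described first among the gene lists, ordered from the pathway's own parts to its targets. The counts of each list are to be read beside all genes tested, of which 24.7% rose and 24.9% fell. Of 19 subunits, kinases and inhibitors of the pathway, all of them tested, 4 rose, 10 fell and 5 were not called, with a median log2 fold change of -0.18 beside -0.01 over all genes tested. CYLD, a deubiquitinase that restrains the pathway, rose from 36.2, 34.7 and 37.3 CPM to 64.3, 65.6 and 63 CPM (log2 0.83). MAP3K14, the kinase NIK of the alternative pathway, fell from 83.7, 87.3 and 93.4 CPM to 48.6, 46.9 and 48.8 CPM (-0.88). NFKB2, the p100 precursor, fell by 0.37, and the feedback inhibitors NFKBIA (-0.31), TNFAIP3 (-0.75) and NFKBIZ (-0.80) fell as well. Their ranges did not overlap between the lines for CYLD, MAP3K14 and NFKB2. In the VP64 line, which carries no nanobody-p65 but expresses RELA, the log2 changes from the same control were 0.84, -0.89 and -0.39 for these genes. The median of the list there was -0.04.

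Of 24 further NF-kB target genes, 19 were tested: 6 rose and 7 fell, with a median of -0.08, beside 24.7% and 24.9% of all genes. IL32, a proinflammatory cytokine (log2 0.81), SDC4, a heparan sulfate proteoglycan (0.80), and BCL2L1, which protects from apoptosis (0.38), rose. BIRC3, an inhibitor of apoptosis, fell from 57.9, 51.7 and 54.9 CPM to 28.7, 25.1 and 23.2 CPM (-1.10). Under the length offset the counts were 3 and 4. The adhesion gene ICAM1 was at a log2 difference of -0.02 and was not called. In the VP64 line the log2 changes were 0.91 for SDC4, 0.47 for BCL2L1 and -1.05 for BIRC3. Of this list only IER3 was called between the p65 and VP64 lines (-0.33).

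Chemokines and cytokines were mostly lower. Of 23 listed, 18 were tested: 13 fell, 10 of them at least 2-fold, and IL11 was the riser; the median log2 fold change was -1.26. The neutrophil chemokine CXCL1 was at 70.1, 68.9 and 66.1 CPM in the control and 16.8, 15.1 and 17.9 CPM in the p65 line (log2 -2.04, SE 0.069, adjusted p = 1.11e-15). CXCL8, another neutrophil chemokine, was at 222, 240 and 228 CPM in the control and 65.6, 83.4 and 88.1 CPM in the p65 line (-1.54, SE 0.085, adjusted p = 3.14e-12). IL24 fell from 670, 667 and 700 CPM to 273, 298 and 300 CPM (-1.23), and TNF, CSF2, IL6, IL1B and CCL20 fell by between 1.29 and 1.87 on the log2 scale.

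The promoter stretches of the CXCL genes and of BIRC3 are shown because these genes are textbook NF-kB targets and fell; capitals mark the kappa B match, from RefSeq promoters of GRCh38.p14, 5′ to 3′ on the gene's strand.
CXCL1: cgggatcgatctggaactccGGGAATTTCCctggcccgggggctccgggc
CXCL2: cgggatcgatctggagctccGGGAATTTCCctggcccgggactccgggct
CXCL3: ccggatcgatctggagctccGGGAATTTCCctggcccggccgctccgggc
BIRC3: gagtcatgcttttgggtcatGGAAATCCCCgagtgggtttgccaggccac
They lie at chr4:73869294-73869343 (CXCL1, plus strand), chr4:74099244-74099293 (CXCL2, minus), chr4:74038739-74038788 (CXCL3, minus) and chr11:102317265-102317314 (BIRC3, plus). The BIRC3 match is read on the other strand. The matches begin 79, 78, 79 and 199 bases before the annotated start. CXCL1, CXCL2 and CXCL3 hold the same 10 letters, and they fell by 2.04, 2.57 and 1.78 on the log2 scale. Over the window of 250 bases before to 50 after the start, searched on both strands, a kappa B match was in 5 of 13 chemokine and cytokine promoters found (38.5%) and in 7.41% of all 27305 promoters. The match was also in 5 of 18 promoters of the NF-kB target list (27.8%), among them IL32, which rose. In the list of subunits and inhibitors it was in 7 of 16 (43.8%). Among the promoters found it was in 9.18% of genes that rose at least 2-fold, 9.07% of those that fell at least 2-fold and 8.67% of all genes tested. A match is a run of letters and not a measured site.

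**Figure D2:**
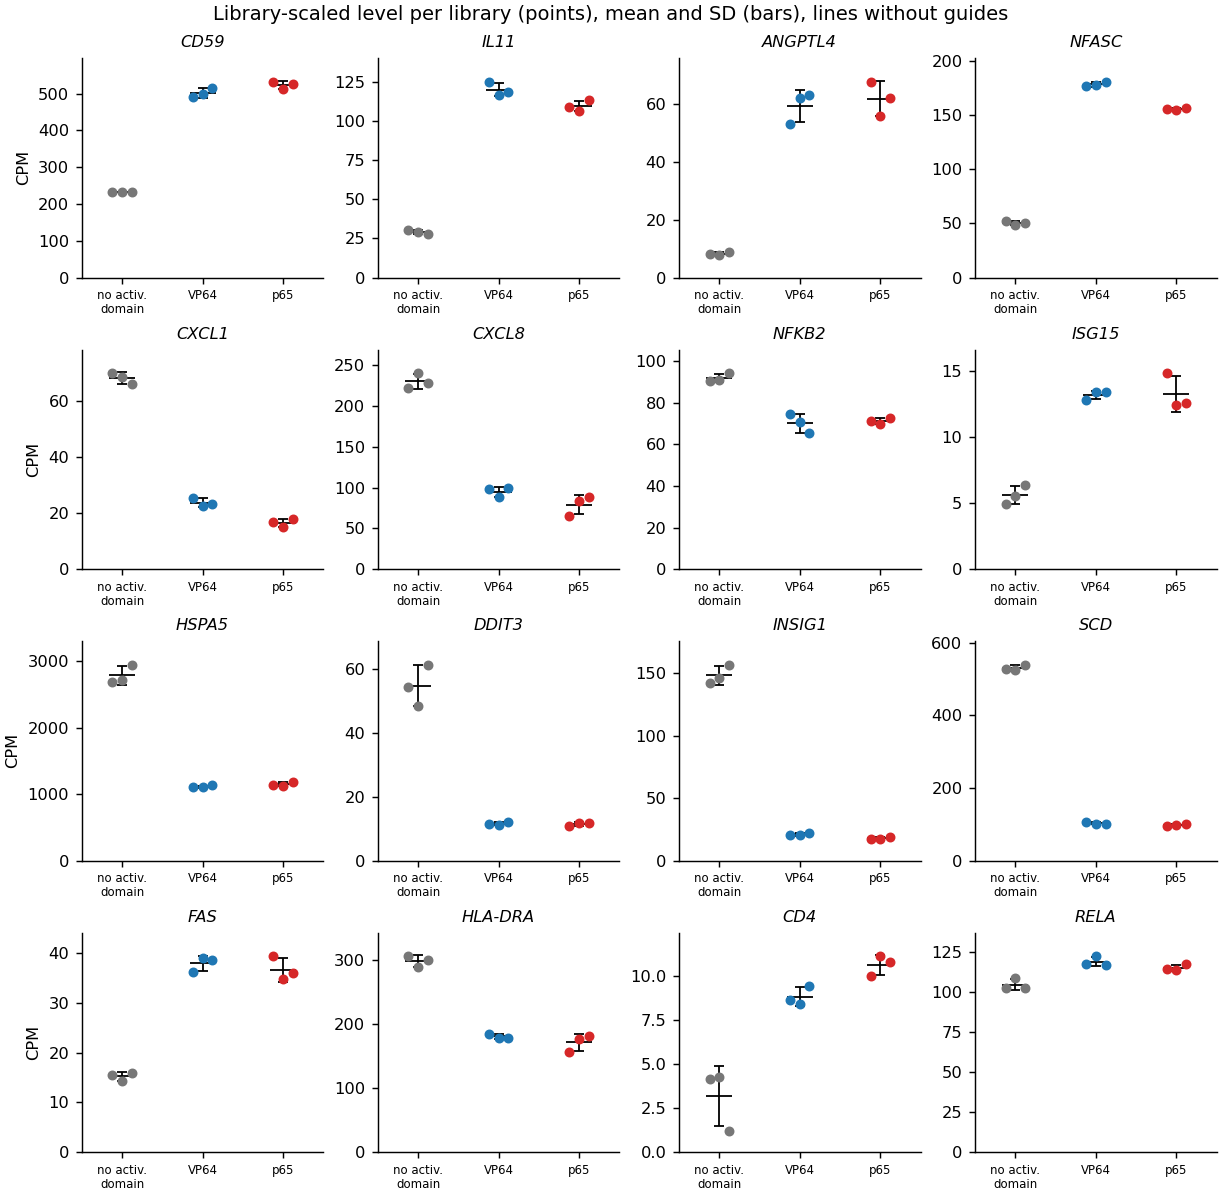
CPM (vertical axes, from 0) in each library (points) of the lines without guides, with the mean and SD of 3 libraries (bars), for 16 genes. The VP64 and p65 points lie on the same side of the control in every panel, with the smallest step in RELA; CXCL1 is lower in p65 than in VP64 and NFASC is lower in p65 than in VP64.

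Of 25 TNF superfamily genes, 17 were tested: 6 rose and 7 fell, beside 24.7% and 24.9% of all genes. Rises were those of the death receptors FAS, from 15.6, 14.3 and 15.9 CPM to 39.4, 34.7 and 35.9 CPM (log2 1.26), TNFRSF10B (0.66) and TNFRSF10A (0.60), among others. The death-domain receptors NGFR and TNFRSF21 (-1.42) fell. The falls also held TNFSF15 (-1.23) and 4 others. FAS and TNFRSF10B are also p53 targets, a list of which all 22 genes were tested: 16 rose and 4 fell, with a median of 0.45. MDM2, the ubiquitin ligase of p53, rose from 82.7, 79.5 and 80.8 CPM to 150, 146 and 131 CPM (0.81), ZMAT3 by 1.09 and the cell cycle inhibitor CDKN1A by 0.43. The exceptions that fell were GDF15 (-0.92), BBC3 (-0.84), DDB2 (-0.60) and PLK2 (-0.55).

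Interferon-response genes were split in favour of rises. Of 32 listed, 28 were tested: 12 rose, 3 at least 2-fold, and 3 fell. ISG15, a ubiquitin-like modifier, was at 4.96, 5.55 and 6.35 CPM in the control and 14.9, 12.4 and 12.6 CPM in the p65 line (log2 1.23, SE 0.116, adjusted p = 1.44e-08), and OASL (1.95) and OAS2 (1.15), of the oligoadenylate synthetase family, rose too. IFIH1 (-0.50), STAT2 (-0.40) and IFI44 (-0.27) fell, while MX1 (-0.13) and IFI27 (-0.10) were not called. The upstream stretch of ISG15 (chr1:1013364-1013419, plus strand) is shown as the promoter of the best-measured 2-fold riser of the list, with capitals on 2 overlapping matches to GAAA, any 2 bases and GAAA.
ISG15: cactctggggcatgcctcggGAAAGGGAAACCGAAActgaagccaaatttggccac

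Genes of antigen presentation were read by class. Of 18 tested class I genes, 6 rose and 4 fell, all by less than 2-fold and with a median of 0.05, near the 24.7% and 24.9% over all genes: HLA-B rose from 309, 303 and 289 CPM to 384, 398 and 410 CPM (log2 0.40) and the light chain B2M by 0.27. The TAP2 call, a rise of 0.28, was lost under the length offset (0.09, adjusted p = 0.759). Of 15 class II genes, all tested, none rose and 13 fell, with a median of -0.43. HLA-DRA fell from 307, 289 and 301 CPM to 157, 178 and 182 CPM (-0.79), the invariant chain CD74 by 0.79, and the class II master regulator CIITA by 0.43. HLA genes are near-identical to each other in part, so a split of their reads by counting is uncertain.

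Genes of the unfolded protein response, which raises folding capacity in the endoplasmic reticulum, were lower: of 18, all tested, 14 fell and 1 rose, with a median of -0.51. HSPA5, the chaperone BiP (hg38 chr9:125234853-125241330), was at 2691, 2725 and 2952 CPM in the control and 1141, 1128 and 1181 CPM in the p65 line. No p65 library reached the lowest control library, and the log2 change was -1.28 (SE 0.039, adjusted p = 1.93e-16). HERPUD1, a factor of degradation from the endoplasmic reticulum, fell from 121, 119 and 135 CPM to 38.2, 35.9 and 39.9 CPM (-1.72), and HYOU1 and MANF each fell by 0.81. ATF6, a sensor of the response, was the riser (0.39).

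The stress elements of 2 of these promoters are shown, since they are the named sites of the response: capitals mark CCAAT, any 9 bases and CCACG in HSPA5 (chr9:125241371-125241429, minus strand) and ATTGG, any base and CCACG in HERPUD1 (chr16:56932005-56932055, plus strand).
HSPA5: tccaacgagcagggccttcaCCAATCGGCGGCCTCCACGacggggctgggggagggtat
HERPUD1: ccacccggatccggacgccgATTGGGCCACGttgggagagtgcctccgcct
The first was in 4 of 18 promoters of the list (HSPA5, HSP90B1, CRELD2 and XBP1) and in 0.0806% of all promoters. The second was in 3 of 18 (HERPUD1, HYOU1 and SDF2L1) and in 0.0549%. All 7 of these genes fell.

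The integrated stress response, which runs through ATF4, was lower as well: of 22 listed, 21 were tested, 14 fell and 2 rose, with a median of -0.51. DDIT3, the factor CHOP, was at 54.3, 48.6 and 61.4 CPM in the control and 10.7, 11.7 and 11.8 CPM in the p65 line (log2 -2.26, SE 0.087, adjusted p = 9.11e-15). ATF4 itself fell by 0.87, TRIB3 by 1.33 and CHAC1 by 1.29. SLC7A5, an amino acid transporter, rose by 0.27.

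Of 21 cholesterol synthesis genes, all tested, 18 fell and 2 rose, SC5D by 0.35, with a median of -0.52. After INSIG1, large falls were those of the sterol carrier STARD4 (-1.70), the reductase DHCR7 (-1.17) and the master factor SREBF2, which fell from 53.8, 58.8 and 56.2 CPM to 26.7, 25.2 and 26.8 CPM (-1.10). SCD, a target of the related fatty acid programme, went from 527, 524 and 540 CPM to 94.9, 97.9 and 102 CPM.

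Proliferation genes were lower by less than 2-fold. Of 24 DNA replication genes 20 fell, and of 21 mitotic genes 19 fell, with none that rose in either list; the medians were -0.34 and -0.28. MCM7, of the replicative helicase, fell from 503, 506 and 504 CPM to 298, 313 and 312 CPM (-0.71), and PCNA, the sliding clamp, from 417, 400 and 416 CPM to 300, 304 and 306 CPM (-0.44). CDC20, an activator of the anaphase-promoting complex, fell by 0.60, and CCNB1 by 0.42. CDKN1C, a cell cycle inhibitor, fell by 2.57, while CCND1, the cyclin of G1, fell by 0.38. Matches to the E2F site TTTCCCGC were in 8 of 20 replication promoters found (40%) and in 1.66% of all promoters. They were in 2.53% of promoters of tested genes. Genes that rose at least 2-fold had 0.51% and those that fell at least 2-fold 0.267%. Whether the matches bear on the falls was not tested. The stretch of PCNA (chr20:5126654-5126701, minus strand) is shown, with the match, read on the other strand, in capitals.
PCNA: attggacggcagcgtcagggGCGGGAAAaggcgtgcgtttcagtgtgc

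**Figure D3:**
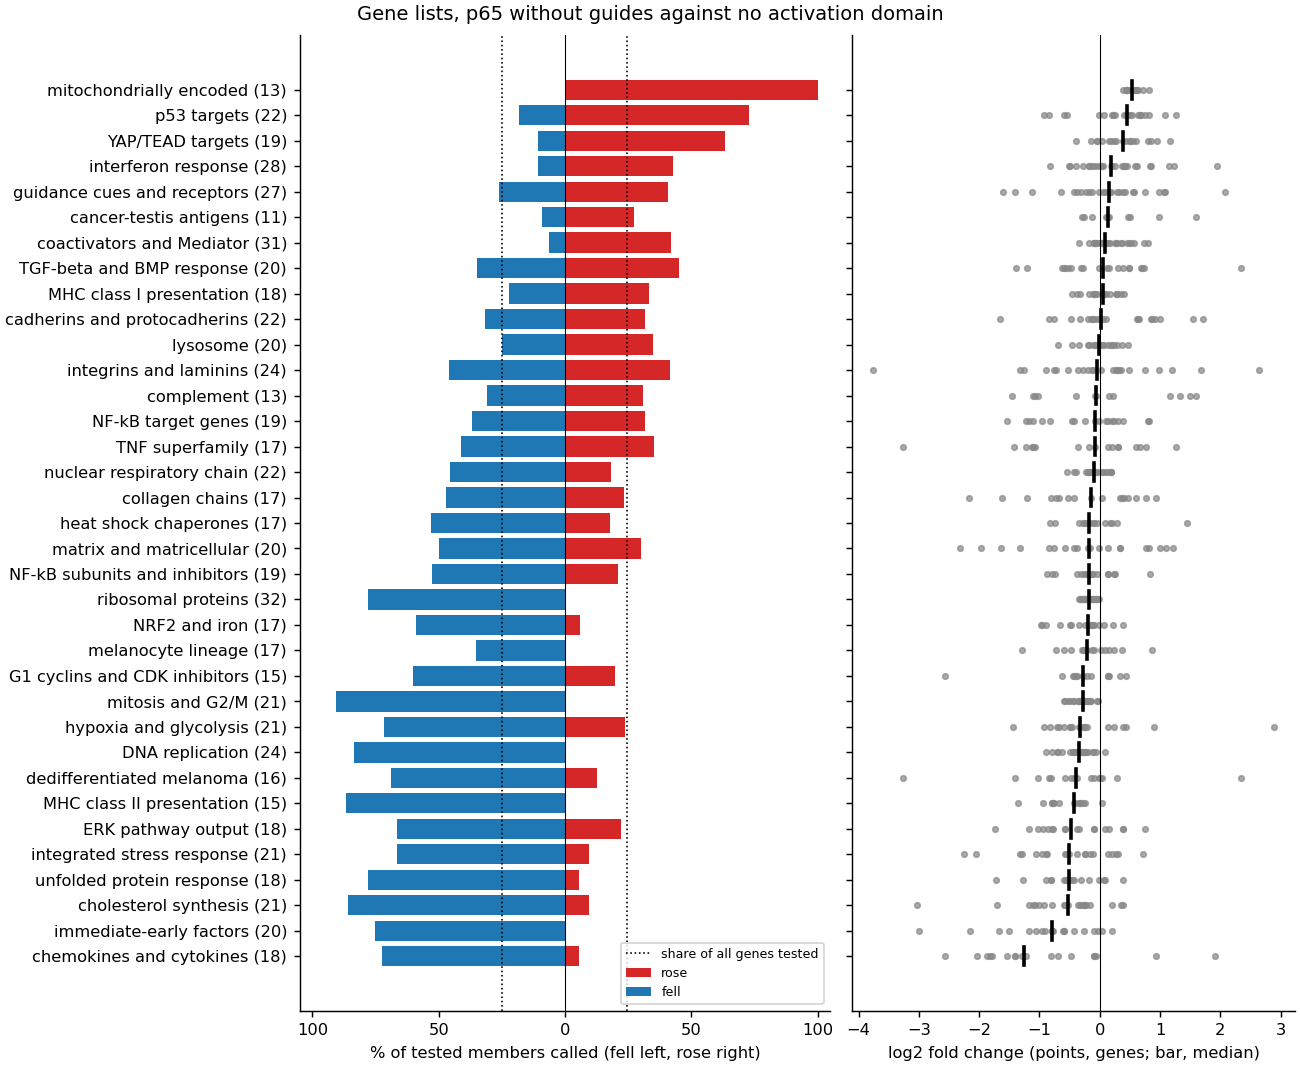
Share of tested members that fell (left of 0) or rose (right of 0) and the log2 fold change of each member (grey points) with the median (black bars), p65 without guides against no activation domain, for lists with at least 11 tested genes; the number tested is in parentheses and dotted lines mark 24.9% and 24.7%, the shares over all genes. Chemokines have the lowest median (-1.26) and mitochondrially encoded genes the highest (0.54).

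Of 20 immediate-early factors, all tested, 15 fell and none rose, with a median of -0.79. KLF4 fell from 25.1, 26.3 and 23 CPM to 4.94, 6.14 and 5.59 CPM (log2 -2.16). FOS was at 230, 188 and 101 CPM in the control and 35.3, 20.8 and 9.64 CPM in the p65 line, a fall of 3.0 (SE 0.402). In each of the 5 lines library A had the highest and library C the lowest level of FOS, and the same held for EGR1; with the library letter as a block the FOS fall was 3.03 (adjusted p = 8.47e-14). What the letter stands for is not given in the labels, and its part was not tested further. Of 18 ERK output genes 12 fell and 4 rose, with DUSP5 at -1.02, DUSP4 at -0.94 and PHLDA1 at -0.78. Of 21 tested hypoxia and glycolysis genes 15 fell, among them NDRG1 (-1.44), VEGFA (-0.83) and BNIP3 (-0.71), and 5 rose, with ANGPTL4 far above the others.

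YAP/TEAD targets went the other way: of 20 listed, 19 were tested, 12 rose and 2 fell, with a median of 0.39. ANKRD1 rose from 133, 133 and 131 CPM to 255, 245 and 265 CPM (0.95), AMOTL2 by 0.85 and LATS2, a kinase that restrains YAP, by 0.80. Of 20 tested TGF-beta and BMP response genes 9 rose and 7 fell. SKIL (0.74), SKI (0.70) and TGFBR2 (0.69) were among the rises, and INHBA fell by 1.39.

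In the matrix, TIMP3, an inhibitor of metalloproteases, fell from 849, 834 and 820 CPM to 145, 179 and 178 CPM (-2.32), and 10 of 20 tested matrix genes fell while 6 rose, FBN1 by 1.22. Of 17 tested collagen chains 8 fell, COL5A2 by 2.17, and 4 rose, COL4A1 by 0.94. Integrins and laminins divided almost evenly, with 10 of 24 up and 11 down. FAT1, a giant cadherin, rose from 186, 195 and 170 CPM to 377, 383 and 341 CPM (1.0). Of 22 tested cadherins and protocadherins 7 rose and 7 fell, beside 24.7% and 24.9% of all genes. Guidance genes had 11 rises and 7 falls among 27 tested, with the neuropilin NRP2 lower by 1.41 and the ephrin receptor EPHA2 higher by 0.38.

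Of 17 tested lineage genes of melanocytes 6 fell and none rose. In the fit of the 6 libraries alone 3 rose, and with DESeq2 size factors or the replicate block 1 rose. ERBB3, a neuregulin receptor, fell by 1.29 and GPNMB, a melanosome glycoprotein, from 302, 302 and 318 CPM to 183, 182 and 191 CPM (-0.73). Genes of the dedifferentiated state also fell: 11 of 16 tested, with NGFR first, and 2 rose, WNT5A by 0.29. Of 20 listed cancer-testis antigens 11 were tested, 3 rose (MAGEC2 by 0.50) and PRAME fell by 0.26, a call lost under the length offset (adjusted p = 0.055).

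All 13 mitochondrially encoded genes rose, with log2 fold changes from 0.38 to 0.81. MT-CO3, a subunit of cytochrome c oxidase, was at 1240, 1423 and 1174 CPM in the control and 1857, 2231 and 1812 CPM in the p65 line (0.62). Reads of the mitochondrial genome made up 1.47% to 1.81% of the control libraries and 2.06% to 2.79% of the p65 libraries, highest in B, and the part of RNA quality in this was not tested. Of 22 nuclear genes of the respiratory chain 10 fell and 4 rose.

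Of 32 ribosomal protein genes 25 fell, by small amounts (median -0.18), and none rose; RPL5 went from 913, 886 and 899 CPM to 710, 724 and 720 CPM (-0.32). Of 31 coactivators 13 rose and 2 fell, among them CREBBP, a partner of p65, from 67.7, 69.3 and 62.8 CPM to 109, 117 and 104 CPM (0.73), while its paralog EP300 was at 0.01 and not called. Fold changes moved with transcript length: the median log2 fold change was -0.09 in the tenth of genes with the shortest effective length (median 421 bases) and 0.19 in the longest (6114 bases). Ribosomal protein genes had a median length of 408 bases and coactivators 3629 bases, and the part of length in both lists was not tested. KMT2D, a rise of 0.80, was 0.44 and not called under the length offset (adjusted p = 0.0652).

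Of 17 heat shock chaperones 9 fell, with HSPA1A and HSPA1B, 2 near-identical genes, at -0.74 and -0.82, and 3 rose, HSPB8 by 1.45. Of 17 tested NRF2 and iron genes 10 fell, NQO1 from 745, 789 and 738 CPM to 477, 468 and 489 CPM (-0.66), and 1 rose. Of 20 lysosomal genes 7 rose and 5 fell. The zinc exporter SLC30A1, on the metallothionein list, rose by 1.54, and MT2A fell by 0.32. Complement had 4 rises and 4 falls among 13 tested, with C1S (1.60) and CD59 up and C3 (-1.03) down. Over all genes tested 24.7% rose and 24.9% fell.

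All 11 myeloid markers were tested; 8 fell, each at least 2-fold, and CD68 rose by 0.42. Their summed level was 121 to 154 CPM in the control and 99.4 to 115 CPM in the p65 line, with LYZ and AIF1 under 1 CPM in all 6 libraries. FCER1G fell from 11.9, 11.3 and 7.31 CPM to 5.04, 4.11 and 3.39 CPM, and the part of these markers in the falls of class II and cytokine genes was not tested. IL7R, on the T cell list, rose from 93.8, 91.5 and 91.3 CPM to 229, 225 and 221 CPM (1.29) although CD3D, CD3G and CD2 were at 0. TRAC, the other T cell marker tested, went from 1.42, 1.11 and 0.565 CPM to 0.611, 0.26 and 0.484 CPM (-1.15, adjusted p = 0.0194), a call lost without p65 library B (0.105) or control library A (0.127) or B (0.0625). Fibroblast and endothelial markers summed to 43.1 to 51.1 CPM in the control and 68.6 to 79.1 CPM in the p65 line: of 6 tested 2 rose, ACTA2 by 1.01, and 2 fell, while VWF, CDH5, DCN and PDGFRA were under 1 CPM. The part of these markers in the changes of collagen and matrix genes was not tested. Neural and glial markers summed to 29.1 to 29.9 CPM and 26.1 to 29 CPM, and of 7 tested 1 fell, SNAP25 by 1.47. Epithelial markers summed to 61.8 to 70.4 CPM and 64.7 to 71.5 CPM, and 5 of 6 tested were not called.

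The VP64 line without guides differs from the p65 line by the domain on the nanobody. It shares its 3 control libraries with the comparison above, and against them 47.6% of genes were called. The p65 and VP64 lines were therefore compared directly, which tests the difference of the 2 changes because the control cancels. In that test 315 genes were called (2.11%), 58 higher in p65 (0.388%) and 257 lower (1.72%). At least 2-fold, 1 was higher (0.00668%) and 9 lower (0.0602%), and the median absolute log2 difference was 0.09. Of the 58 higher genes, 46 were also called higher than the control, 3 lower and 9 not called. Of the 257 lower genes, 174 were also called lower than the control, 49 higher and 34 not called. Over all genes tested 24.7% rose and 24.9% fell against the control. Both comparisons use the same 3 p65 libraries, so a high or low value there moves both the same way. The agreement in direction is therefore no separate support. Of the 296 genes that rose at least 2-fold over the control, 5 were higher in p65 than in VP64, 3 lower and 288 not called; of the 568 that fell at least 2-fold, 44 were lower, 1 higher and 523 not called. These 2-fold sets were chosen by the level in the same p65 libraries, which favours higher calls among the rises and lower calls among the falls. A gene not called here is not shown to act alike in both lines.

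Some genes named above had a narrow 95% interval of the log2 difference from VP64 that held 0, and examples are given. Among them were CD59 (-0.01 to 0.13), MAP3K14 (-0.13 to 0.15) and HYOU1 (-0.07 to 0.09). For other named genes the interval reached further from 0, such as PLEKHA7 (-0.03 to 0.47), LIPH (-0.86 to 0.01) and GABRA6 (-0.87 to -0.25). ANGPTL4 was at 52.9, 61.9 and 63 CPM in the VP64 line, overlapping the p65 libraries, with a 95% interval of the log2 difference from -0.12 to 0.24. That of HSPA5 was from -0.03 to 0.13, that of SCD from -0.23 to 0.09 and that of DDIT3 from -0.23 to 0.19. The interval was wide for genes with few counts: from -0.47 to 0.73 for SFTA1P, from -2.20 to -0.24 for ITGA10 (adjusted p = 0.228) and from -0.21 to 1.40 for SAA1. No gene of the unfolded protein response, cholesterol, DNA replication, interferon, MHC, p53, ribosomal or coactivator lists was called between the p65 and VP64 lines, beside the 2.11% of all genes. At that share a list of this size would hold few or no calls, so a lack of calls marks no single list as unusual. In the lines with guides, where this check was added after the data had been seen, IL11 was higher in p65 than in VP64 by 0.41 and SCD and HSPA5 lower by 0.53 and 0.19. The change in the difference passed the test for each (adjusted p = 0.00359, 0.032 and 0.0354). NFASC, whose rise had the smallest p, was lower in p65 than in VP64 (177, 179 and 181 CPM; log2 -0.20, adjusted p = 0.00341).

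Among the genes that did differ, TGFBI, a secreted matrix protein induced by TGF-beta (hg38 chr5:136028895-136063818), had the smallest p of those named. It was at 160, 156 and 157 CPM in the VP64 line, 145, 148 and 140 CPM in the control and 75.1, 83.4 and 82.5 CPM in the p65 line. The p65 libraries lay below both other lines, and the log2 difference from VP64 was -0.97 (SE 0.045, adjusted p = 6.97e-12). THBS1, the matricellular thrombospondin, was at 4245, 4242 and 4189 CPM in VP64 and 2659, 2824 and 2711 CPM in p65 (-0.63, adjusted p = 4.48e-10), and both were above the control at 2273, 2202 and 2032 CPM. NRP2 was at 82, 84.4 and 81.4 CPM in VP64 and 46.1, 45.2 and 49.7 CPM in p65 (-0.81, adjusted p = 1.88e-08).

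Several of the deepest falls, chosen by the level in the same p65 libraries, were deeper in p65. NGFR was at 135, 120 and 120 CPM in the VP64 line, above the p65 libraries and far below the control (log2 difference -0.91, SE 0.084, adjusted p = 7.97e-07). LYPD1 (-1.10), SERPINB7 (-0.91), CST7 (-0.90), MMP8 (-0.70), CXCL1 (-0.51), IL24 (-0.34) and GPNMB (-0.36) were likewise lower in p65 than in VP64. EGR1, an immediate-early factor, was at 239, 209 and 171 CPM in VP64, 117, 100 and 86.2 CPM in p65 and 127, 115 and 83.3 CPM in the control (-1.03, SE 0.188, adjusted p = 0.00267). Here the p65 line overlapped the control and the VP64 line stood above both. FOS was lower by 1.77 (adjusted p = 0.0226), but that call was lost in 4 of 6 fits that left out 1 library. With the letter as a block the differences were -1.82 for FOS (adjusted p = 9.89e-09) and -1.02 for EGR1 (8.47e-08).

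By list, 7 of 16 dedifferentiated-state genes, 7 of 20 matrix genes and 6 of 20 immediate-early factors were lower in p65 than in VP64, beside 1.72% of all genes. These counts fell to 5, 6 and 3 under the length offset. Of 13 mitochondrially encoded genes 7 were higher in p65 than in VP64, beside 0.388% of all genes, but 2 without p65 library B and 1 under the length offset. KIF11, a mitotic kinesin, was the mitotic gene that was higher in p65 (0.20), and TNIP1, an inhibitor of NF-kB signalling, was the NF-kB pathway gene that was lower (-0.22, or -0.18 and not called without VP64 library A, adjusted p = 0.0554).

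Few genes were higher in p65. BCAM was at 20.6, 19.2 and 20.5 CPM in VP64 and 26.7, 31.3 and 33.4 CPM in p65 (0.60, SE 0.081, adjusted p = 9.31e-05), and SYNPO, by contrast, was at 80.9, 79.6 and 81.2 CPM in VP64 and 51.9, 52.9 and 56.4 CPM in p65 (-0.58). KISS1, a metastasis suppressor gene (0.85), DCT, a melanin enzyme (0.77), and UNC5B, a netrin receptor (0.64), were higher as well, but each call was lost in at least 2 fits that left out 1 library. So were those of WDR27, UPK3BL1, ZNF678 and the mitochondrial pseudogene MTATP6P1, whose reads can be shared with MT-ATP6. Against the control KISS1 fell (-1.16), by less than in the VP64 line (-2.01). DCT (0.37, adjusted p = 0.0512 in the edgeR test) and WDR27 (0.05) were not called against the control. UNC5B (1.07), UPK3BL1 (0.54), ZNF678 (0.50) and MTATP6P1 (0.71) rose over the control. RGPD1, of a family with near-identical copies, CDH19 and SORBS2 were lower by 1.38, 0.96 and 0.93 with the same limit, while MPP4 (-1.06) kept its call in all 6 of those fits. Under the length offset the calls of MPP4 (adjusted p = 0.11) and SERPINB7 (0.058) against VP64 were lost.

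The 2 lines with CD4 guides were not among the groups compared without guides, and this check was added after the data had been seen. It is not fully separate, because all 15 libraries shared the filter, the fit and its spread. Between the 2 lines with guides, 1185 genes were called (7.92%), of which 557 were higher in p65 than in VP64 (3.72%) and 628 lower (4.2%). Of the 257 genes lower in p65 without guides, 160 (62.3%, or 25.5% of the 628) were also lower with guides and 7 were higher. Of the 58 higher genes, 19 (32.8%, or 3.41% of the 557) were also higher and 0 lower. TGFBI was at 185, 174 and 171 CPM with VP64 and guides and 81.3, 80.7 and 77.4 CPM with p65 and guides (log2 -1.15, adjusted p = 1.89e-13), and NGFR was lower by 0.92 (adjusted p = 1.29e-07). BCAM was not called with guides (0.15, adjusted p = 0.322); the test of the change in its difference gave 0.45 (adjusted p = 0.0706).

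**Figure D4:**
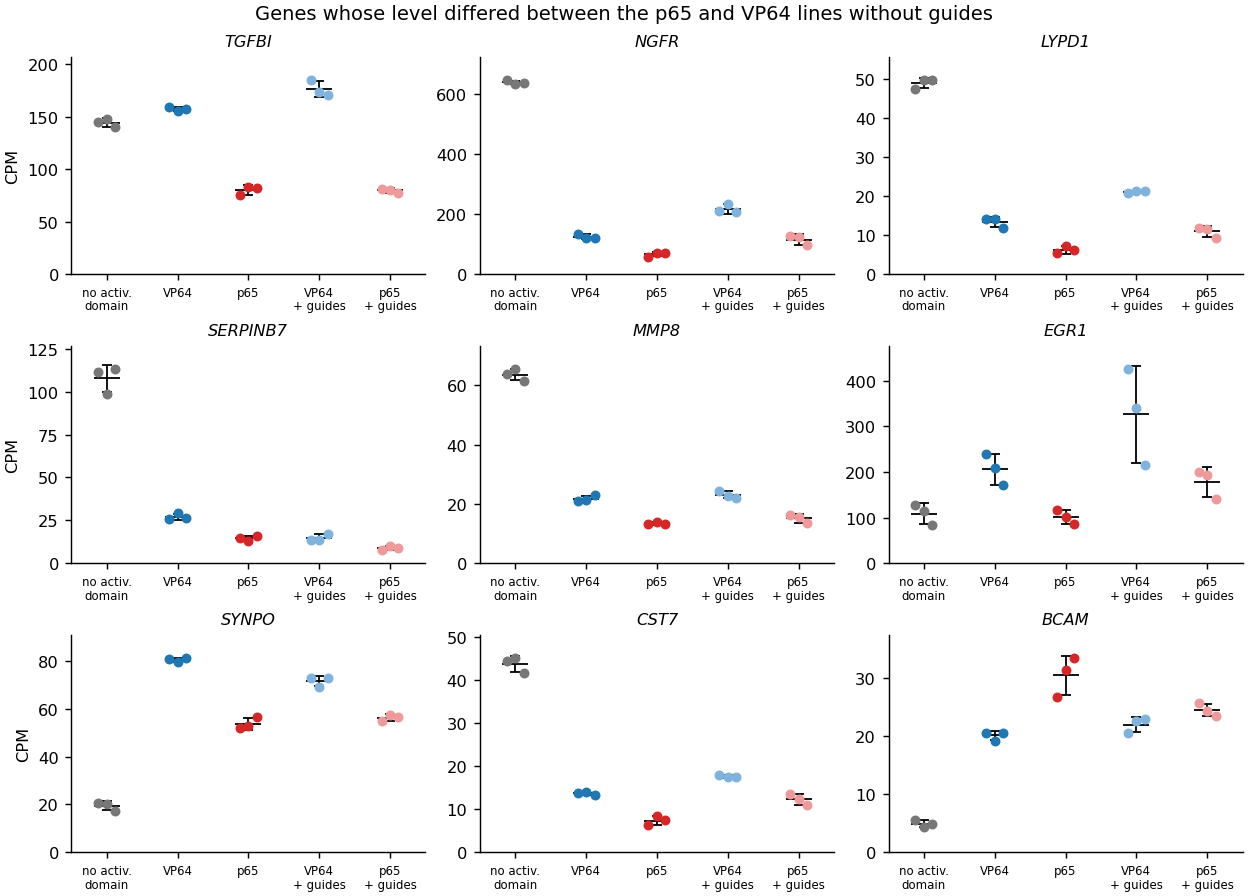
CPM (vertical axes, from 0) in each library of the 5 lines (points), with the mean and SD of 3 libraries (bars), for 9 genes that differed between the p65 and VP64 lines without guides. TGFBI lies below the control in both p65 lines and above it in both VP64 lines; NGFR is highest in the control and lower in p65 than in VP64 with and without guides.

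**Figure D5:**
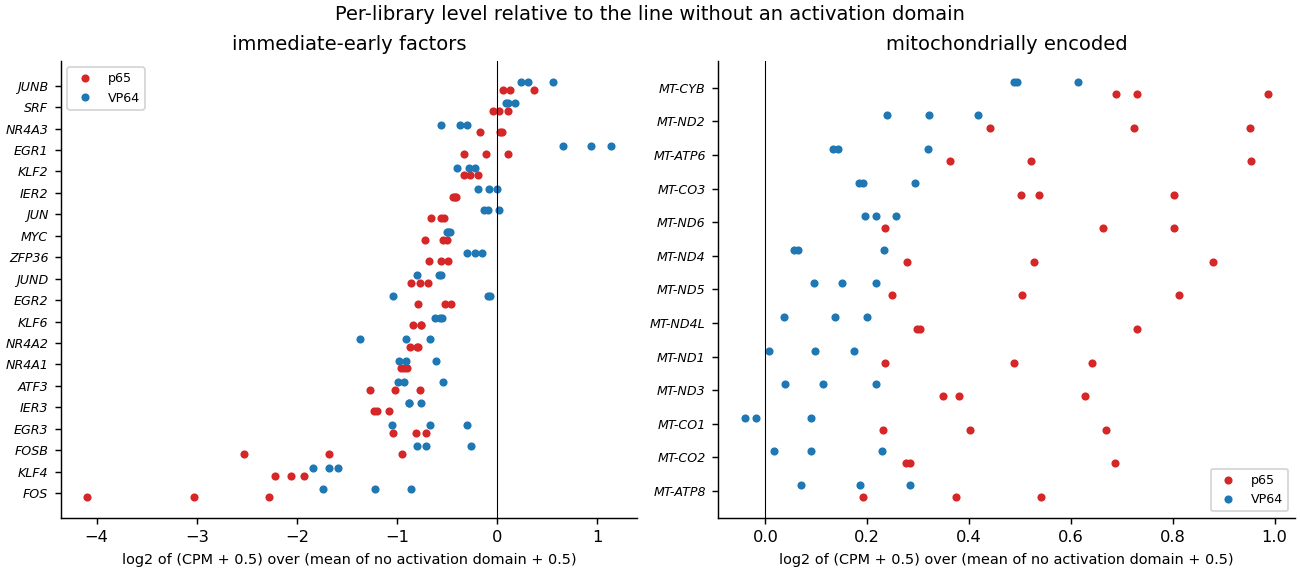
Log2 of the level in each library (CPM + 0.5) over the control line's mean (CPM + 0.5), p65 line in red and VP64 line in blue, for 20 immediate-early factors and 13 mitochondrially encoded genes. FOS and FOSB scatter widely, EGR1 is above 0 in VP64 and around 0 in p65, and the mitochondrial points of p65 spread to the right of those of VP64.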

How the data were processed

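RNA was extracted and libraries were made by a commercial provider, per the labels' protocols. The submitters' processing notes name STAR, RSEM and hg38, without versions or roles. The deposited tables give the authors' expected counts per gene, TPM and effective length for 58813 entries, 92 of them spike-in entries that were left out. Strandedness was not given in the sources used here, so antisense partners cannot be told apart. All 58721 gene IDs matched GENCODE 29, and 58252 had a current symbol.

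Expected counts were rounded and fitted with edgeR 4.0.16 (R 4.3.3): filterByExpr with a minimum count of 10, trimmed mean of M-values scaling, and a quasi-likelihood fit of all 15 libraries with 1 coefficient per line. The spread is thus shared by all 5 lines. The Benjamini-Hochberg adjustment covered all 14961 genes, and the script was tested on simulated data. The authors' TPM values were not tested. Some genes that met the naming rule are not reported here. Depth over all libraries was 15643706 to 23072513 counts.

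Named were CD4 and RELA, up to 15 genes per direction by fold change (mean of at least 1 CPM, no overlap), up to 10 per direction by adjusted p (at least 20 CPM), up to 4 per gene list of 42 lists and up to 8 per direction against VP64; other list members named were picked after their values were seen. Members and lists were chosen with earlier results of these data known. Alternatives were DESeq2 1.42.0, its size factors, other filters, unrounded counts, a length offset, a replicate term, the 6 libraries alone and leaving out each library.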

Additional observations from a re-analysis of the deposited data

Results flagged for a closer look

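The difference between the p65 and VP64 lines was itself different with and without guides for the genes below, by the interaction term of the same edgeR fit, adjusted over all genes; this test was added after the data had been seen. Values below are the log2 difference without guides minus that with guides. For NFASC it was -0.51 (adjusted p = 7.29e-06): p65 was lower than VP64 by 0.20 without guides and higher by 0.31 with them. For IL11 it was -0.54 (adjusted p = 0.00359) and for GABRA6 -1.5 (0.0004). Sterol and lipid genes gave 0.61 for INSIG1 (adjusted p = 0.0135), 0.46 for SCD (0.032) and -0.41 for NPC1 (0.000218). For THBS1 it was -0.4 (adjusted p = 0.000178), lower in p65 both times, and for DCT 1.08 (0.0192), with differences of 0.77 and -0.31. NF-kB genes gave -0.51 for MAP3K14 (adjusted p = 0.0056), -0.3 for SDC4 (0.00268) and 0.31 for IER3 (0.0437). The others were HSPA5 at 0.24 (adjusted p = 0.0354), TNFRSF10B at -0.25 (0.0185), CCND1 at 0.26 (0.0158), ITGA5 at -0.31 (0.0382) and PCDHB5 at -0.51 (0.0227).

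Spike-in entries, which no comparison used, held 7 counts in library B of the p65 line and 4 in library B of the VP64 line, above the control libraries at 1 count each. The 7 counts are 3.65e-05% of that library.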

How the results depend on the processing

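In the comparison with the control, the counts of genes that rose, fell, and did so at least 2-fold stayed within 1.5 times under all 14 alternatives. Leaving out 1 library gave 3409 to 3548 rises, 3233 to 3373 falls, 279 to 319 at least 2-fold rises and 518 to 582 falls, and the length offset gave 2715 rises and 2590 falls. Of 84 list counts, 25 moved by more than 1.5 times in at least 1 setting. KRT19, not called, turned from 0.11 to -0.02 without p65 library A or control library A and ranged up to 0.21 without p65 library C. The counts against VP64 were less stable. With no filter on low counts they were 136 higher and 409 lower, 31 and 43 at least 2-fold, and under the length offset 11 and 98, 0 and 3. At least 2-fold higher genes numbered 0 with a mean of at least 1 CPM, 2 with the replicate block and 0 in DESeq2, where 4 were at least 2-fold lower. Leaving out 1 library gave 19 (without p65 library B) to 54 higher, 157 (without p65 library A) to 247 lower, 0 to 3 at least 2-fold higher and 5 to 8 at least 2-fold lower. RELA against VP64 turned from -0.05 to 0.1 under the length offset. The cause was not tested. Over all genes, library letters did not pair the lines, although FOS and EGR1 followed them: correlations of same-lettered deviations were -0.06 to 0.08, and the replicate block gave 3643 rises and 3665 falls against the control and 44 and 231 against VP64. Genes under a few counts, such as FRG2 and ADAM8, are limited by depth.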
